A study of Mus musculus with 6 samples.

Results

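Interferon-stimulated genes are the genes that cells switch on when interferon reaches its receptor, and 36 of them were followed here by name among the 25407 gene rows of the deposited table. Each of the 36 symbols stood on a single row. They comprise 5 genes of transcription factors and feedback, 23 targets named mainly for type I interferon, 7 GTPases of the Gbp and Irg families, and the chemokine gene Cxcl10. All 36 passed the filter on low counts, and 30 of them had a mean of at least 0.5 FPKM (fragments scaled to transcript length and library depth, a level that can be compared between genes) over the libraries.

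RNA was sequenced from CT26.WT, a mouse colon carcinoma cell line, in 3 control libraries and 3 treated libraries. The treated cells received the nanoparticle Cu₂O@AuMn@HA together with NaHS, which releases hydrogen sulfide, and NIR (near-infrared) light, while the sources used here say no more of the control group than its name. Libraries held 71409968 to 81821380 estimated counts in the control group and 62328377 to 70323604 in the treated group. Whether the libraries of a group came from separate cultures is not stated. The p-values reflect the spread among these 6 libraries alone, and that spread may be technical.

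The line's identity was checked with marker genes. The epithelial adhesion genes Epcam and Cdh1 were listed at 0 in all 3 control libraries and averaged 0.00901 and 0.0425 FPKM in treated libraries, whereas the intestinal keratin gene Krt20 stood at 90.3 ± 2.99 FPKM (SD, n = 3) in control and 57.5 ± 4.22 in treated libraries, and Krt18 at 65.4 ± 5.94 and 163 ± 9.97. Of the 8 epithelial markers, 6 were tested. Of these 3 rose (Krt8, Krt18 and Krt19) and 1 fell (Krt20), beside 23% and 23.5% of all rows tested. The intestinal genes Cdx2 and Vil1 were not called, at 0.255 ± 0.108 and 0.396 ± 0.0630 FPKM and at 0.0203 ± 0.0351 and 0.0971 ± 0.0336 FPKM in control and treated libraries. Of 10 leukocyte markers, 7 had a row, and the pan-leukocyte gene Ptprc was listed at 0 in every library but treated 3. The summed level of those 7 was 30.6 to 31.1 FPKM in control and 58.9 to 67.2 FPKM in treated libraries. Most of it came from the lysosomal gene Cd68, which rose from 27.8 ± 0.360 to 61.0 ± 5.43 FPKM. Itgax rose as well, from 0.226 ± 0.0853 to 0.553 ± 0.159 FPKM, so that 2 of 5 leukocyte markers tested rose and 0 fell. Lyz2 was not called, at 2.74 ± 0.272 FPKM in control and 2.70 ± 0.751 FPKM in treated libraries. The 4 endothelial markers summed to at most 0.0680 FPKM in any library. Whether these marker changes bear on the interferon genes was not tested.

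Type I interferons bind a receptor made of IFNAR1 and IFNAR2, whose kinases JAK1 and TYK2 phosphorylate STAT proteins, among them STAT2. These join IRF9, and the complex binds the interferon-stimulated response element in promoters of antiviral genes. Interferon gamma instead acts through its own receptor and on gamma-activated sites in promoters, and it is the stronger inducer of the Gbp and Irg GTPases, which attack the vacuoles of intracellular pathogens. Many genes answer both kinds of interferon, and many carcinoma lines keep a low constant level of this programme without added interferon.

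Of the 36 genes, 15 fell and 6 rose in treated cells, and 15 did not pass the test (edgeR's quasi-likelihood test, adjusted p under 0.05 over 16212 rows). Those that fell were Irf7, Irf9, Stat2, Usp18, Oas1a, Oas2, Oas3, Oasl2, Ifi35, Cmpk2, Rtp4, Parp14, Xaf1, Igtp and Irgm1. Those that rose were Ifit1, Ifit3, Rsad2, Mx2, Bst2 and Cxcl10. The share that fell was 41.7%, beside 23.5% of all rows tested, and the share that rose was 16.7%, beside 23% of all rows, so that 58.3% were called in either direction against 46.6% of all rows. The median log2 fold change (treated over control) of the 36 was −0.16, and that of all rows tested was 0.06. With upper quartile scaling the median of all rows moved up by 0.12, 4688 rows rose and 3028 fell in place of 3735 and 3813, and 7 of the 36 genes rose and 13 fell. FPKM values of treated and control libraries did not overlap in 21 of the 36 genes, beside 57.5% of all rows tested. Separation of the groups alone thus does not set these genes apart. In bulk RNA, fewer cells expressing a gene and less RNA per cell cannot be told apart.

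**Figure D1:**
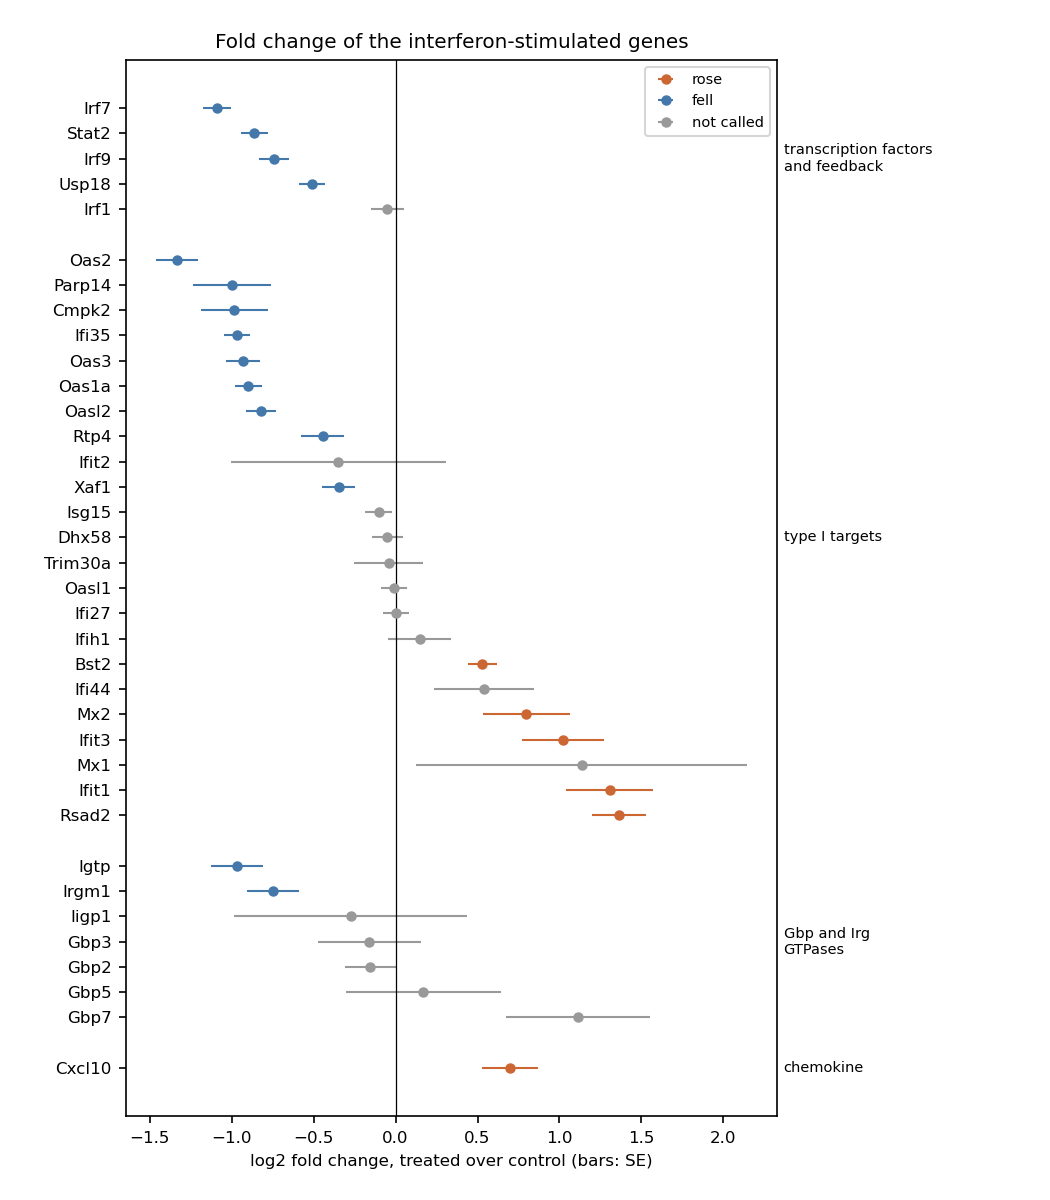
Log2 fold change (horizontal axis, treated over control, with SE as bars) of the 36 interferon-stimulated genes, grouped by role, with 3 libraries in each group. Points for genes that rose, fell or were not called differ in colour, and the type I targets run from −1.34 for Oas2 to 1.36 for Rsad2.

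Among the transcription factors and feedback genes, 4 of 5 fell and 0 rose, beside 23.5% and 23% of all rows. Irf7, the factor that amplifies interferon production, stood at 41.0, 40.5 and 41.4 FPKM in control libraries 1 to 3 and at 20.5, 17.8 and 20.9 FPKM in treated libraries 1 to 3. Every treated library was thus far below the lowest control, though groups did not overlap in 57.5% of all rows either. Its log2 fold change was −1.09 ± 0.09 (SE; edgeR adjusted p = 8.8e-06). The gene lies on chromosome 7 (ENSMUSG00000025498, 140842619 to 140846394, minus strand, in the coordinates of the deposited table, whose build is not given), and it overlaps Phrf1 on the other strand by 45 bases.

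Stat2 and Irf9 encode members of the complex that answers type I interferon, and both were lower in every treated library. Stat2 read 8.996, 9.73 and 9.10 FPKM in control and 5.44, 5.35 and 4.92 FPKM in treated libraries (log2 fold change −0.86 ± 0.08, edgeR adjusted p = 2.97e-05). Irf9 read 7.02, 6.78 and 7.06 FPKM in control and 3.96, 4.52 and 4.30 FPKM in treated libraries (−0.74 ± 0.09, adjusted p = 0.000128). Irf9 shares 123 bases with Rnf31 on the same strand, so some of its estimated counts are uncertain.

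Usp18, the protease that removes ISG15 from proteins and blocks the type I receptor, stood at 17.0, 17.5 and 18.6 FPKM in control and at 12.6, 12.8 and 12.8 FPKM in treated libraries. Groups did not overlap, and the log2 fold change was −0.51 ± 0.08 (edgeR adjusted p = 0.000615). Irf1, the factor most tied to interferon gamma, was the exception among the 5. Its levels interleaved, at 13.8, 16.5 and 14.7 FPKM in control and 15.6, 13.8 and 15.2 FPKM in treated libraries (−0.05 ± 0.10, adjusted p = 0.705). After a correction for the GC content of transcripts it was called higher, at 0.19 (adjusted p = 0.0486).

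Of the 5 genes of the oligoadenylate synthetase family among the 36, whose best-known members sense double-stranded RNA and activate RNase L, Oas1a, Oas2, Oas3 and Oasl2 fell and Oasl1 was not called. Oas2 stood at 5.16, 6.03 and 6.29 FPKM in control and at 2.69, 2.203 and 2.21 FPKM in treated libraries. Its log2 fold change of −1.34 ± 0.13 was the lowest of the 36 genes (edgeR adjusted p = 3.06e-05). Oas3 stood at 13.2, 16.2 and 14.1 FPKM in control and at 8.34, 7.23 and 7.80 FPKM in treated libraries (−0.93 ± 0.10, adjusted p = 7.08e-05).

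Oas1a stood at 59.6, 55.6 and 62.8 FPKM in control and 31.5, 31.5 and 34.7 FPKM in treated libraries (−0.90 ± 0.08, edgeR adjusted p = 1.93e-05). Oas1a, Oas2 and Oas3 lie side by side on chromosome 5 (120868398 to 121045584), and in each of them all treated libraries were below all control libraries. Oas1a has close copies nearby, among them Oas1g, so the split of reads between them is uncertain. Oas1g itself fell from 25.5 ± 0.476 to 12.5 ± 0.874 FPKM (−1.06 ± 0.09), while the copies Oas1b (−0.41 ± 0.18, adjusted p = 0.0841, or 0.0270 without treated 3) and Oas1c (−0.28 ± 0.16, adjusted p = 0.181) were not called.

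Oasl1 and Oasl2, neighbours on chromosome 5 (115034997 to 115075974), differed in their calls. Oasl2, which keeps synthetase activity, stood at 11.6, 13.1 and 13.7 FPKM in control and at 7.69, 6.96 and 7.61 FPKM in treated libraries (−0.82 ± 0.09, edgeR adjusted p = 8.38e-05). Oasl1, a translational repressor of Irf7 in mice, stood at 50.2, 51.3 and 47.4 FPKM in control and at 52.2, 47.6 and 51.6 FPKM in treated libraries, with overlapping groups (−0.01 ± 0.08, adjusted p = 0.914). With the GC correction Oasl1 was called higher, at 0.21 (adjusted p = 0.00549). The difference between the fold changes of both genes was not tested.

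Ifi35, an interferon-induced leucine zipper protein, fell with little spread. Its control libraries stood at 31.8, 32.3 and 31.7 FPKM and its treated libraries at 16.7, 16.8 and 16.8 FPKM (log2 fold change −0.97 ± 0.08, edgeR adjusted p = 1.03e-05). Parp14, an ADP-ribosyltransferase, was low in all libraries, between 0.412 and 0.442 FPKM in control and between 0.142 and 0.264 FPKM in treated libraries (−1.0 ± 0.24, adjusted p = 0.00667).

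Rtp4 and Xaf1 changed less, and their calls were close to the threshold. Rtp4, a chaperone of receptors with an antiviral role, stood at 6.39, 5.72 and 5.39 FPKM in control and 4.75, 4.24 and 4.20 FPKM in treated libraries (−0.44 ± 0.13, edgeR adjusted p = 0.0189). It overlaps Masp1 on the other strand by 525 bases, and its call was lost without control 1 (adjusted p = 0.0529) and with upper quartile scaling (0.0680). The apoptosis-linked gene Xaf1 stood at 4.34, 4.31 and 4.65 FPKM in control and 3.47, 3.61 and 3.61 FPKM in treated libraries (−0.35 ± 0.10, adjusted p = 0.0177). Its call was lost without control 3 (0.0593), without treated 1 (0.0739) and with upper quartile scaling (0.0918).

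Rsad2 (viperin) and Cmpk2 act in the same nucleotide pathway, CMPK2 supplying the CTP that viperin turns into a chain terminator, yet they moved in opposite directions. Rsad2 stood at 0.789, 0.635 and 0.866 FPKM in control and at 2.06, 1.91 and 2.06 FPKM in treated libraries, the largest rise of the 36 genes (log2 fold change 1.36 ± 0.17, edgeR adjusted p = 0.000126). Cmpk2 stood at 1.71, 1.30 and 1.46 FPKM in control and at 0.780, 0.953 and 0.581 FPKM in treated libraries (−0.98 ± 0.20, adjusted p = 0.00312). Neither gene's groups overlapped. They are transcribed away from each other on chromosome 12, from starts 12752 bases apart (26506451 and 26519203).

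The Ifit genes, whose proteins hold back translation of foreign RNA, form a row on chromosome 19 (34528094 to 34627409), in which Ifit1 and Ifit3 were called and Ifit2 was not. Ifit1 rose, from 1.23, 0.937 and 0.845 FPKM in control to 2.30, 3.61 and 1.75 FPKM in treated libraries (log2 fold change 1.31 ± 0.27, edgeR adjusted p = 0.00285). Ifit3 rose as well, from 1.18, 0.736 and 0.708 FPKM to 2.07, 1.94 and 1.47 FPKM (1.02 ± 0.25, adjusted p = 0.00793). Its near copy Ifit3b was not called, at 0.779 ± 0.195 and 1.12 ± 0.206 FPKM (adjusted p = 0.148), and how reads were divided between both copies is uncertain.

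Ifit2 did not pass and rested on a single library. It stood at 1.76, 1.204 and 1.34 FPKM in control and at 1.55, 1.82 and 0.116 FPKM in treated libraries, where treated 3 held 34 estimated counts and treated 1 and 2 held 411 and 547. The log2 fold change was −0.35 ± 0.66 (edgeR adjusted p = 0.696), and without treated 3 it was 0.18. The map of deviations by library shows treated 3 apart for this gene.

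**Figure D2:**
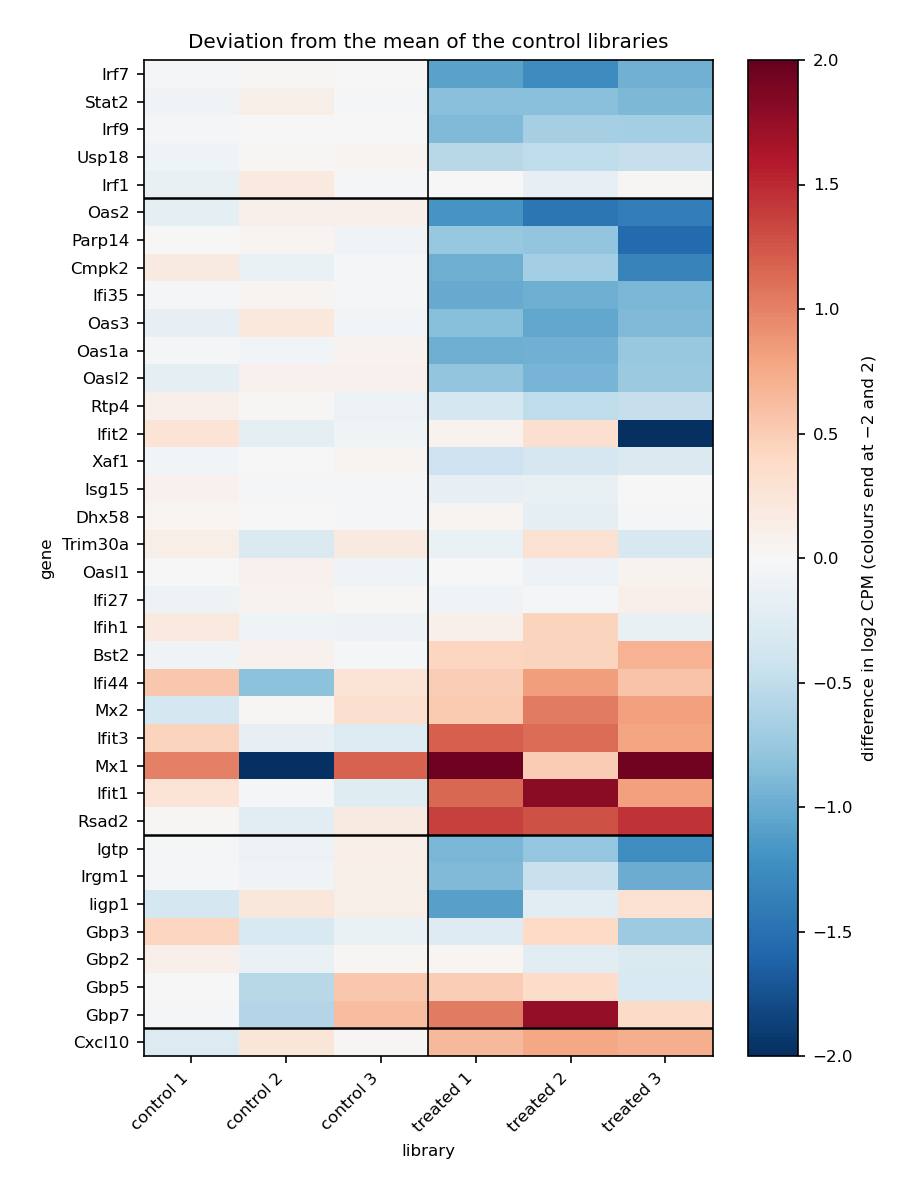
Difference in log2 CPM (counts scaled to library depth, colour scale) of each library (columns) from the mean of the 3 control libraries, for the 36 genes (rows) grouped by role and ordered by fold change. Irf7, Stat2, Irf9 and Usp18 are lower in all 3 treated libraries, Rsad2 and Ifit1 are higher in all 3, and Ifit2 is low in treated 3 alone, where its level was 0.116 FPKM.

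Bst2 (tetherin), which holds budding virus at the cell surface, was the most abundant of the 36 genes and rose. It stood at 236, 249 and 240.4 FPKM in control and at 343, 342 and 388 FPKM in treated libraries, without overlap (log2 fold change 0.53 ± 0.09, edgeR adjusted p = 0.00101). Cxcl10, the chemokine that draws in T cells bearing CXCR3, rose from 1.86, 2.52 and 2.26 FPKM to 3.60, 3.89 and 3.62 FPKM (0.70 ± 0.17, adjusted p = 0.00753).

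The dynamin-like GTPase genes Mx1 and Mx2, which block viral ribonucleoproteins, were near the lower limit, and the table's annotation marks both with the loss-of-function class of transcripts. Mx2 ran from 0.249 to 0.397 FPKM in control and from 0.481 to 0.675 FPKM in treated libraries (log2 fold change 0.80 ± 0.27, edgeR adjusted p = 0.0331). Its call was lost without control 1 or 2 or treated 2 or 3 (adjusted p = 0.102, 0.0722, 0.127 and 0.0740). Mx1 ran from 0 to 0.127 FPKM over the libraries and was not called (adjusted p = 0.392).

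Isg15, the ubiquitin-like protein joined to many targets in the interferon response, kept overlapping groups, at 67.7, 59.1 and 61.1 FPKM in control and 58.5, 58.2 and 62.2 FPKM in treated libraries (log2 fold change −0.10 ± 0.08, edgeR adjusted p = 0.344). Ifi27, a mitochondrial protein, also interleaved, at 90.7, 97.1 and 97.9 FPKM in control and 94.4, 97.3 and 101 FPKM in treated libraries (adjusted p = 0.996), and was called at 0.24 with the GC correction (0.0061). Both were among the most abundant of the 36 genes, so low counts were not the limit for them.

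Dhx58 and Ifih1, both RNA sensors of the RIG-I family, were not called either, unlike Rigi, which is not among the 36 and fell from 5.39 ± 0.150 to 4.13 ± 0.569 FPKM (log2 fold change −0.42 ± 0.10, edgeR adjusted p = 0.00645). Dhx58 (LGP2) stood at 9.15, 8.43 and 8.49 FPKM in control and 9.40, 7.90 and 8.48 FPKM in treated libraries (edgeR adjusted p = 0.686), and it overlaps its antisense gene Dhx58os by 2637 bases. Ifih1 (MDA5) stood at 0.732, 0.571 and 0.589 FPKM in control and 0.701, 0.882 and 0.564 FPKM in treated libraries (adjusted p = 0.566). Groups overlapped for both sensors, and they did for Ifi44 and the ubiquitin ligase gene Trim30a. Ifi44 stood at 0.722, 0.266 and 0.592 FPKM in control and 0.720, 0.904 and 0.716 FPKM in treated libraries (edgeR adjusted p = 0.179). Trim30a stood at 1.46, 1.04 and 1.49 FPKM in control and 1.25, 1.67 and 1.04 FPKM in treated libraries (adjusted p = 0.889, or 0.0278 at −0.46 with the GC correction).

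**Figure D3:**
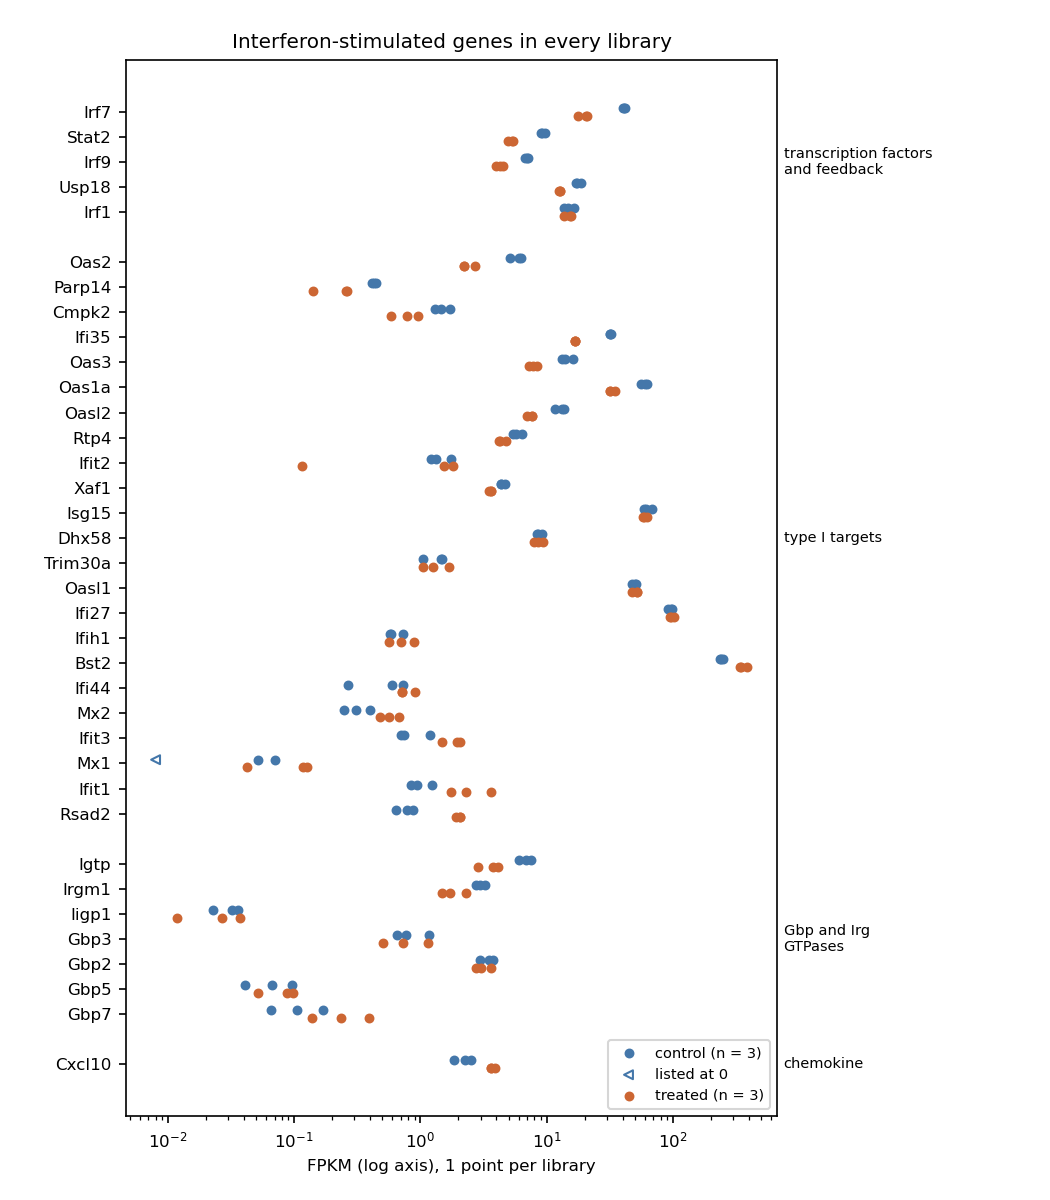
Level of each of the 36 genes (rows, grouped by role) in FPKM on a log axis, with 1 point for each of 3 control and 3 treated libraries; the open triangle is Mx1 in control 2, which was listed at 0. Irf7, Oas1a and Ifi35 show treated points apart from and below the controls, while Isg15 and Oasl1 overlap.

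The Gbp and Irg GTPases, the group most tied to interferon gamma, held 2 genes that fell (23.5% of all rows did) and 0 that rose (23% of all rows) among 7, so the share that fell was near that of all rows. Igtp (IRGM3), a regulator of the Irg family, stood at 6.84, 6.09 and 7.56 FPKM in control and at 3.77, 4.13 and 2.84 FPKM in treated libraries (log2 fold change −0.97 ± 0.16, edgeR adjusted p = 0.000844). Irgm1, another regulator of the family that also acts in autophagy, stood at 2.98, 2.75 and 3.26 FPKM in control and at 1.70, 2.28 and 1.49 FPKM in treated libraries (−0.75 ± 0.16, adjusted p = 0.00343). Both lie on chromosome 11, and in both every treated library was below every control.

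The 4 guanylate-binding protein genes among the 36 sit together on chromosome 3 (142199739 to 142343769), and none was called. Gbp2 stood at 3.74, 2.98 and 3.50 FPKM in control and 3.64, 3.01 and 2.75 FPKM in treated libraries (log2 fold change −0.15 ± 0.15, edgeR adjusted p = 0.447). Gbp3 stood at 1.16, 0.652 and 0.774 FPKM in control and 0.730, 1.14 and 0.502 FPKM in treated libraries (adjusted p = 0.708). Their groups overlapped.

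Gbp7, Gbp5 and Iigp1 were close to the floor of detection. Gbp7 ran from 0.0657 to 0.169 FPKM in control and from 0.139 to 0.389 FPKM in treated libraries (log2 fold change 1.11 ± 0.44, edgeR adjusted p = 0.0610). It was called higher without control 3 (0.0370), without treated 3 (0.0360) and with upper quartile scaling (0.0454). Gbp5, which ran from 0.0409 to 0.0978 FPKM, and Iigp1, an effector that disrupts vacuoles and that ran from 0.0118 to 0.0376 FPKM, were not called (adjusted p = 0.798 and 0.782), and at 5 to 49 estimated counts per library a difference was hardly detectable.

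Set side by side, 9 of 23 type I targets fell and 5 rose, while 2 of 7 Gbp and Irg GTPases fell and 0 rose, beside 23.5% and 23% of all rows. The median log2 fold change was −0.05 over the type I targets, or 0.02 with library totals only and 0.07 with upper quartile scaling. Over the GTPases the median was −0.16, or −0.08 with library totals only and −0.04 with upper quartile scaling. On genes with a mean of at least 1 FPKM it was −0.15 over 18 type I targets and −0.68 over the 3 GTPases left, Gbp2, Igtp and Irgm1. Per library, the median deviation of the type I targets from the mean of the controls was −0.08, −0.11 and −0.14 in treated libraries 1 to 3, on the log2 CPM scale. That of the GTPases was −0.26, −0.21 and −0.30, and their control libraries themselves spread from −0.14 to 0.12. The type I targets held genes called in both directions, and the GTPases, of which only 2 of 7 were called, in 1 direction only. Among the GTPases not called, Gbp7 stood at 1.11 (edgeR adjusted p = 0.0610) and was called higher in 4 of 15 alternatives. Neither these directions nor the medians of both groups were compared by a test.

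Other genes of the pathway were counted by list, and each count can be read against the 23% of all rows that rose and the 23.5% that fell. Among 40 further type I targets tested, 19 fell and 8 rose, with a median of −0.39. Those that rose were Ifi203, Ifi204, Isg20, Samd9l, Ddx60, Trim34a, Phf11d and Tor3a. Isg20 stood at 16.2 ± 1.11 FPKM in control and 29.8 ± 1.51 FPKM in treated libraries (0.84 ± 0.09, edgeR adjusted p = 4.2e-05). Phf11d was called in 7 of 18 alternatives, Trim34a in 11 of 15 and Dtx3l, which fell, in 12 of 18. Ifitm3, a membrane protein that blocks viral entry, fell from 701 ± 19.3 to 333 ± 20.6 FPKM (log2 fold change −1.11 ± 0.09, edgeR adjusted p = 7.8e-06), Ifi27l2a from 123 ± 11.2 to 51.97 ± 4.04 FPKM (−1.28 ± 0.10) and the galectin gene Lgals9 from 89.5 ± 4.603 to 45.99 ± 0.706 FPKM (−0.997 ± 0.08). Shisa5, with means of 48.96 ± 2.12 FPKM in control and 45.6 ± 1.81 FPKM in treated libraries, was the most abundant gene not called (adjusted p = 0.184).

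Among 10 further interferon-inducible GTPases tested, 5 fell and 1, Gbp8, rose, beside 23.5% and 23% of all rows, with a median of −0.78. Gbp8 held 15 to 62 estimated counts per library, and its call was lost without treated 1 (adjusted p = 0.0798), without treated 2 (0.115) and with the library number as a block (0.0725). Ifi47, among those that fell (−0.59 ± 0.19, edgeR adjusted p = 0.0303), was called in 9 of 18 alternatives, and its call was lost without control 1 (0.0675), control 3 (0.0645), treated 1 (0.115) or treated 3 (0.0934). Irgm2, the remaining regulator of the Irg family, fell from 3.31 ± 0.393 to 1.43 ± 0.111 FPKM (−1.24 ± 0.15, edgeR adjusted p = 0.000111). The near-identical pair Tgtp1 and Tgtp2 fell from 0.601 ± 0.0733 to 0.175 ± 0.0696 FPKM (−1.81 ± 0.32) and from 0.501 ± 0.111 to 0.194 ± 0.0824 FPKM (−1.37 ± 0.35), so their separate values are uncertain. The large GTPase gene Gvin1 fell by 1.06 ± 0.30 on the log2 scale, a call lost without treated 1 (adjusted p = 0.0548). Gbp2b was not called, with 0.941 ± 0.350 FPKM in control and 0.936 ± 0.263 FPKM in treated libraries (adjusted p = 0.921).

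**Figure D4:**
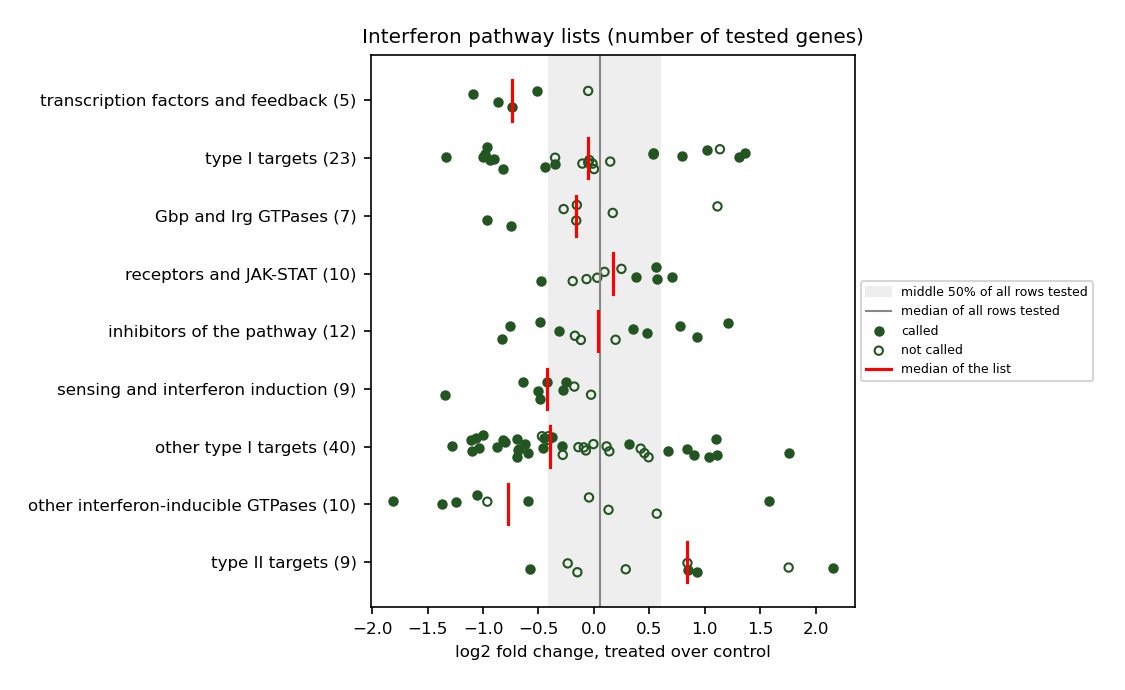
Log2 fold change (horizontal axis) of each tested gene in 9 lists of the interferon pathway (rows, number of tested genes in brackets), with filled points for called genes, red lines for list medians and a grey band for the middle 50% of all rows tested. The median is −0.74 for transcription factors and feedback, −0.05 for type I targets and 0.84 for type II targets, the value of Nos2, which was not called.

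RNA of the interferon genes was barely present where a row existed, and interferon protein was not measured. Of 12 ligand genes 5 had a row, and their summed level was 0.265 to 0.463 FPKM in control and 0.371 to 0.513 FPKM in treated libraries. Only Ifnz passed the filter on low counts, at 0.273 ± 0.0169 and 0.309 ± 0.0609 FPKM (edgeR adjusted p = 0.815). Of 10 receptor and JAK-STAT genes tested, 4 rose, beside 23% of all rows, and the number that fell is not reported here. The kinase gene Jak2 rose by 0.70 ± 0.19 on the log2 scale (edgeR adjusted p = 0.0142), a call kept in 15 of 18 alternatives. The receptor genes Ifnar1 and Ifngr2 rose from 6.27 ± 0.355 to 8.38 ± 0.899 FPKM (log2 fold change 0.38 ± 0.09) and from 6.86 ± 0.302 to 10.5 ± 0.865 FPKM (0.57 ± 0.09), and Il10rb, a chain of the type III interferon receptor, from 4.05 ± 0.365 to 6.11 ± 0.417 FPKM (0.56 ± 0.11). Ifngr1 was not called, with 9.38 ± 0.324 FPKM in control and 9.18 ± 0.324 FPKM in treated libraries (edgeR adjusted p = 0.577).

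Of 12 inhibitors of the pathway, 5 rose and 4 fell, beside 23% and 23.5% of all rows. Among them Pias1, which fell, was called in 7 of 18 alternatives and Trim24, which rose, in 8 of 15. The gene of the phosphatase Ptpn2, which acts on JAK kinases, rose from 2.18 ± 0.0806 to 5.18 ± 0.835 FPKM (log2 fold change 1.21 ± 0.14, or 0.71 with the GC correction), and Irf2bp2 from 9.70 ± 0.703 to 17.1 ± 1.63 FPKM (0.77 ± 0.10). Socs1, the JAK inhibitor, also counted among the type II targets, rose from 3.40 ± 0.148 to 6.62 ± 0.461 FPKM (0.93 ± 0.13, edgeR adjusted p = 0.000244). Pias3 and Ptpn11 fell, by 0.83 ± 0.08 and 0.75 ± 0.08 on the log2 scale. Ptpn6 was not called, with 16.7 ± 0.992 FPKM in control and 15.2 ± 0.701 FPKM in treated libraries (adjusted p = 0.149).

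Of 9 genes that sense nucleic acids and induce interferon, 7 fell and 0 rose, beside 23.5% and 23% of all rows. Among them Ikbke was called in 2 of 18 alternatives and Trim25 in 12. Irf3, the factor that starts interferon transcription, fell from 27.6 ± 0.872 to 20.2 ± 0.419 FPKM (log2 fold change −0.49 ± 0.07, edgeR adjusted p = 0.000473). The adaptor genes Mavs and Sting1 fell by 0.64 ± 0.11 and 0.50 ± 0.09 on the log2 scale, and Tlr3 by 1.34 ± 0.24. The kinase gene Tbk1 was not called, with 3.21 ± 0.378 FPKM in control and 3.24 ± 0.592 FPKM in treated libraries (adjusted p = 0.904).

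Of 9 tested targets of interferon gamma outside the GTPases, 3 rose and 1 fell, beside 23% and 23.5% of all rows, with a median of 0.84. That median is the value of Nos2, which was not called (0.84 ± 1.08, edgeR adjusted p = 0.558), held 0 to 60 estimated counts per library and ran from 0.07 to 3.16 over the alternatives. Besides Socs1, Casp4 rose from 0.149 ± 0.0369 to 0.692 ± 0.144 FPKM (log2 fold change 2.16 ± 0.28) and Irf8 from 2.15 ± 0.139 to 3.96 ± 0.269 FPKM (0.85 ± 0.11). Nlrc5, the activator of MHC class I genes, fell by 0.57 ± 0.16 on the log2 scale (edgeR adjusted p = 0.0142), a call lost with the GC correction (adjusted p = 0.103). Batf2 was not called, with 2.32 ± 0.295 FPKM in control and 2.15 ± 0.209 FPKM in treated libraries (adjusted p = 0.526).

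Promoter sequences were available in RefSeq's table (build GRCm38.p6) for 27 of the 36 genes, as windows from 250 bases before to 50 after the annotated start. The letters GAAA, any 2 bases and GAAA again, the core of the interferon-stimulated response element, were searched on both strands and stood in the windows of 17 of 27 genes (63%), beside 3.99% of 27025 genes in the table. The letters TTCNNNGAA of the gamma-activated site, which read the same on both strands, stood in those of 8 genes (29.6%), beside 9.55% of all. Matches of both motifs may overlap. All 6 Gbp and Irg genes with a window held the response element and 3 held the gamma site, while 9 and 4 of 16 type I targets did.

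By call, the response element letters stood in the windows of 5 of 5 genes that rose, 5 of 11 that fell and 7 of 11 that were not called. A match is a description of letters only, and the windows without one, among them those of Irf7, Irf9 and Ifi35, say nothing of factors bound there. The stretches below, 5′ to 3′ on the strand of the gene and upstream of its start, are shown because genes with the same letters were raised, lowered or not called. Capitals mark these response element letters, read on either strand.
Rsad2, rose, chr12:26456538-26456597, minus strand: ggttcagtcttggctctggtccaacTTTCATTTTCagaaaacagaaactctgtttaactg
Ifit1, rose, chr19:34640760-34640838, plus strand: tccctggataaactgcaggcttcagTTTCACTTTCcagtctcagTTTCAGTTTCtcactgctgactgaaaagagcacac
Ifit3, rose, chr19:34583348-34583441, plus strand: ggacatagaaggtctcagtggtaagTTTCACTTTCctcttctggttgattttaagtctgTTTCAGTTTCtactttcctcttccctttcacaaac
Bst2, rose, chr8:71537562-71537627, minus strand: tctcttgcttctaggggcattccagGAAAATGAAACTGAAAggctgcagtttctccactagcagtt
Cxcl10, rose, chr5:92349068-92349127, minus strand: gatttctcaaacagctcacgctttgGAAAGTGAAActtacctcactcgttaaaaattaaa
Oas1a, fell, chr5:120907526-120907570, minus strand: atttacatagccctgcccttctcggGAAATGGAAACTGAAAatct
Oas3, fell, chr5:120777700-120777759, minus strand: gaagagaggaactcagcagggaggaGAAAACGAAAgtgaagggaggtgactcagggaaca
Stat2, fell, chr10:128270251-128270310, plus strand: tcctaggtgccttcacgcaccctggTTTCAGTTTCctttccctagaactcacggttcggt
Igtp, fell, chr11:58199497-58199555, plus strand: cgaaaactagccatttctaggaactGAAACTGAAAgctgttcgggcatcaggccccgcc
Irgm1, fell, chr11:48871421-48871475, minus strand: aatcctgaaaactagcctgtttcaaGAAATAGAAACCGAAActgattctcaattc
Isg15, not called, chr4:156200850-156200921, minus strand: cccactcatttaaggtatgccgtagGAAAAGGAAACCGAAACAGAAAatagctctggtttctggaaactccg
Gbp2, not called, chr3:142620579-142620638, plus strand: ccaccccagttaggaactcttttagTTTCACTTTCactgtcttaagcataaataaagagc

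The stretches of Bst2, Oas1a, Irgm1 and Isg15 hold overlapping matches in a row, and those of Ifit1 and Ifit3 hold 2 separate matches each. In the genes that rose, the centre of a match lay between −209 (Cxcl10) and −81 (Ifit1), in bases from the start. Among those that fell, it lay between −30 and −10 in Oas1a, Igtp and Irgm1, at −71 in Oas3 and at −218 in Stat2. Among those not called, it lay between −74 and −35 in Isg15, Gbp2, Gbp7 and Gbp3, and at −161 in Gbp5. Trim30a held a match at −32 and at 7 in separate windows, and Ifih1 at 37. With 5 to 7 genes in each set, these distances were not compared by a test.

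**Figure D5:**
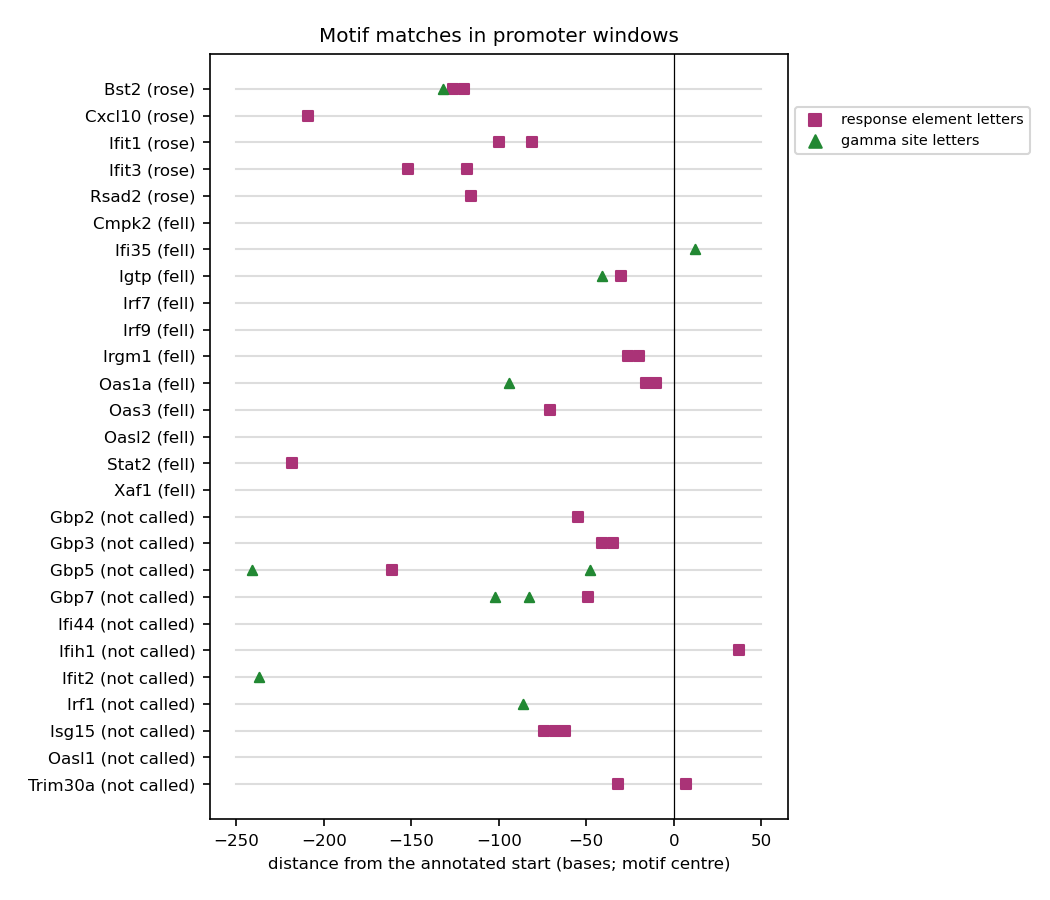
Distance of motif matches from the annotated start (horizontal axis, bases) in the promoter windows of 27 interferon-stimulated genes (rows, with their call), squares for the response element and triangles for the gamma site; genes with several windows are drawn on 1 line. All 5 genes that rose carry a square, and 5 of 11 that fell do.

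Transcript GC content had a median of 47.3% in the 6 genes that rose, 50.4% in the 15 that fell and 46.8% in the 15 not called. Its ranges overlapped widely, at 43.3 to 55.3%, 45.6 to 55.4% and 39.3 to 56.3%, and a difference between these sets was not tested. Over all rows the median was 47.2% in those that rose and 52.4% in those that fell. With the GC correction, 9 of the 36 genes rose and 16 fell, and Irf7 stood at −0.86, Oas2 at −1.13, Ifi35 at −0.72, Bst2 at 0.76 and Rsad2 at 1.23. All 21 genes called without the correction were also called with it, in the same direction.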

How the data were processed

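Per the labels, mRNA was selected with oligo-dT beads and sequenced as paired reads from strand-marked libraries. Per the submitters' processing notes, the tools were HISAT2 2.2.1, cutadapt 1.9, edgeR, DESeq2 and StringTie 2.1.6, without roles or order. For the genome build and the use of strand in counting, the answer is not given in the sources used here, so antisense overlaps are uncertain. The authors deposited FPKM values and whole-number counts per gene, read here as estimated counts. After scaling by each library's mean ratio, the ratio of FPKM to count was fixed per gene (median coefficient of variation 0.0166% over 6541 rows). That alone does not tell estimated from direct counts. A count of 4 occurred 4054 times, beside a mean of 2540 for 3 and 5. Groups came from the titles.

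Treated and control libraries were compared by quasi-likelihood in edgeR 4.0.16 (R 4.3.3) on these estimated counts, with its default filter, TMM scaling, both directions and Benjamini-Hochberg adjustment over 16212 rows at 0.05. SE was the absolute log2 fold change over the root of the F statistic. Alternatives were DESeq2 1.42.0, limma 3.58.1 on log2(FPKM + pseudocount of 1 or 0.1), other scalings and filters, counts divided by 4, a loess correction for transcript GC content (GENCODE M21, 97.2% of rows, span 0.4), the library number as a block, and each library left out. On simulated counts for treated against control (15763 genes) the test recovered 81% of 100 genes changed 2-fold and 100% of 100 changed 4-fold, and called 5 unchanged genes. The changed genes had a mean of at least 100 estimated counts, and the simulated spread followed the trend over all genes. Recovery at lower counts, or for genes with a wider spread than the trend, was not measured.

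The 36 genes and all lists were chosen with earlier results of these data known. All 36 are accounted for. From each further list, up to 4 called genes with the smallest p and the most abundant gene not called are named. Gbp8, Ifi47, Nos2, Ikbke, Trim25, Pias1, Trim24, Rigi, Ifit3b, Oas1b, Oas1c and the markers were named after their values were seen. So were Jak2, Dtx3l and the further type I targets that rose. Promoters came from RefSeq (GRCm38.p6), and positions of genes from the deposited table, whose starts matched GRCm38.p6 in 0 of 36 genes. One gene of the receptor and JAK-STAT list is not reported here.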

Additional observations from a re-analysis of the deposited data

How the results depend on the processing

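Of the 21 genes called, 18 kept their call and direction in every alternative that tested them (15 for Parp14, 18 for the others), and Mx2, Rtp4 and Xaf1 did not. No gene changed from one called direction to the other. Irf1 and Oasl1, not called and at −0.05 and −0.01, turned positive and were called with the GC correction (0.19 and 0.21), Oasl1 also with the replicate block and GC correction together (0.21). With the GC correction 1 of the transcription factors and feedback genes rose in place of 0. The cause of these changes was not tested.

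The median of the type I targets was −0.05, and −0.12 with the GC correction, −0.12 with the block and GC correction together, 0.0247 with library totals only, 0.0727 with upper quartile scaling and −0.0165 with limma over every row. On the 18 targets with a mean FPKM of at least 1 it was −0.15 with edgeR, and −0.16 and −0.19 with limma at pseudocounts of 1 and 0.1. The median of the GTPases was −0.16, and −0.68 with edgeR and −0.51 and −0.70 with limma on the 3 of 7 left by that filter. Over all 7 it was −0.19 with the GC correction, −0.0832 with library totals only, −0.0385 with upper quartile scaling and −0.0622 with limma over every row. With 1 library left out the medians ran from −0.14 to −0.0511 and from −0.29 to −0.0895, and 0 to 1 of the GTPases rose. Gbp7 made it 1 with counts divided by 4 and with upper quartile scaling.

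Libraries with the same number showed little shared deviation (r = 0.04, −0.10 and 0.01 for numbers 1 to 3). The deviations were taken from means of only 3 libraries in each group, so whether the numbers mark pairs stays unknown. With the replicate block 6 of the 36 genes rose and 13 fell, Rtp4 (adjusted p = 0.0581) and Xaf1 (0.0642) being lost. Within the shorter window of 150 bases before the start, 14 of 27 genes held the response element and 7 the gamma site. At the lowest levels (Mx1, Gbp5, Gbp7 and Iigp1) depth limits what could be called.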
